A study of Mus musculus with 24 samples.

Results

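The YAP, TEAD and LATS genes of the Hippo pathway were followed through peak lists of SOX8, SOX9 and 2 histone marks in mouse retina. The 8 genes were taken by symbol (Yap1, Wwtr1, Tead1, Tead2, Tead3, Tead4, Lats1 and Lats2), and all 8 were found among 21887 protein-coding genes of the main chromosomes. The region of a gene was the annotated gene plus 5 kb on each side, and every peak that overlapped a region by 1 bp or more was recorded. The data come from CUT&RUN, in which an antibody brings a nuclease to a chromatin-bound protein and the released DNA is sequenced. Wild-type retina was taken 2 days (P2) and 17 days (P17) after birth, with 600000 nuclei in a reaction; the strain and the number of animals are not given in the sources used here. Each age had 4 SOX8 libraries (2 antibodies) and 2 for every other target, which were SOX9, H3K4me3, H3K27ac and a nonspecific IgG. Each target and age has 1 deposited peak list, with no replicate named and no score, so no value below has an error between libraries and no test was made.

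In the Hippo pathway, the kinases LATS1 and LATS2 phosphorylate the coactivators YAP and TAZ (the product of Wwtr1) and hold them out of the nucleus. When the kinases are inactive, YAP and TAZ enter the nucleus and bind the TEAD factors, which supply the DNA-binding domain. In the retina the pathway is known for its part in progenitor growth and in Müller glia, the main glial cells of the retina. SOX8 and SOX9 are related transcription factors. H3K4me3 is a histone mark of active promoters, and H3K27ac is found at enhancers as well as promoters.

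At P2, SOX9 peaks lay at 5 of the 8 genes, namely Wwtr1, Tead1, Tead2, Tead3 and Lats1, against 27.7% of all protein-coding genes. SOX8 peaks lay at 1 of the 8 at P2 (all genes 15.1%) and at 1 of the 8 at P17 (all genes 13.0%), and that gene was Tead3 both times. At P17, SOX9 peaks also lay at 1 of the 8 genes, again Tead3 (all genes 15.7%). The P2 SOX9 list held 5476 peaks over 16.0 megabases, and the P17 SOX9 list 2855 peaks over 16.3 megabases. H3K4me3 peaks lay at 7 genes at P2 (all genes 49.3%) and at 6 genes at P17 (all genes 50.9%), with Tead4 without a peak at both ages and Tead2 without one at P17. H3K27ac peaks lay at all 8 genes at P2 (all genes 81.8%) and at 6 genes at P17 (all genes 57.0%), with Yap1 and Tead4 without a P17 peak. Among genes with P2 H3K4me3, SOX9 peaks lay at 53.3% and SOX8 peaks at 29.8%, and of the 7 marked members these were 5 and 1. Among genes with P17 H3K4me3, SOX9 peaks lay at 27.4%, and at 1 of the 6 marked members. Fewer cells that carry a peak and a weaker signal in each cell cannot be told apart in whole retina.

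**Figure D1:**
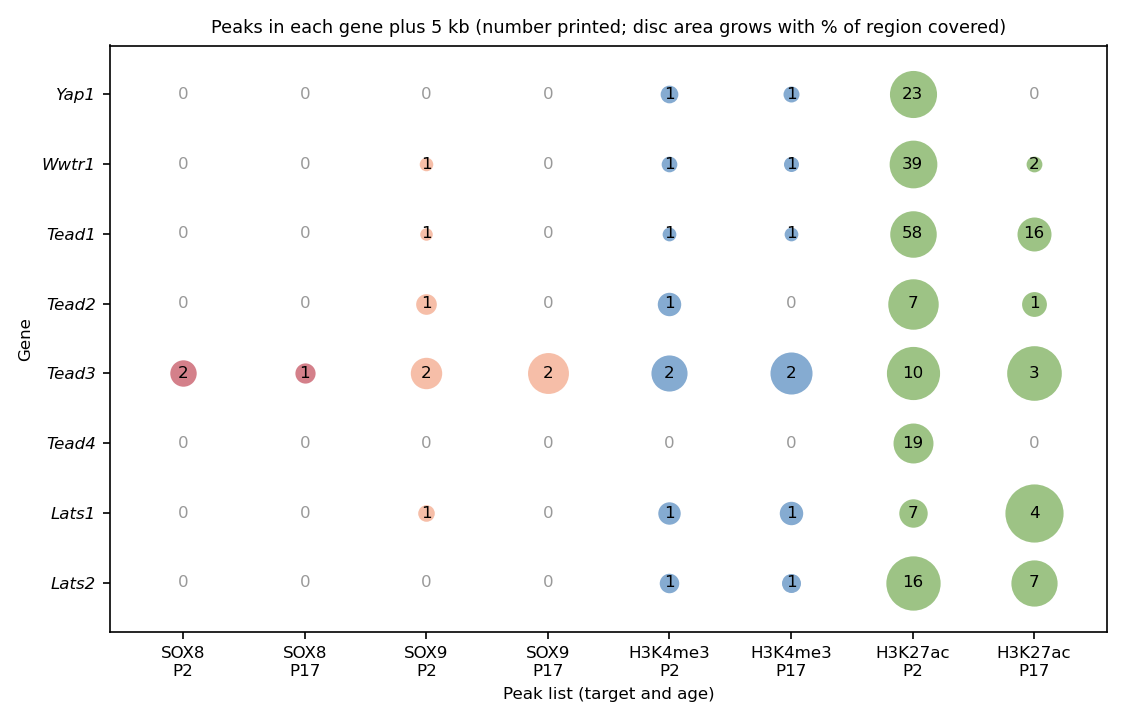
Number of deposited peaks in each gene plus 5 kb (rows, genes; columns, target and age), with the disc area growing with the percent of the region covered. SOX peaks sit at 5 genes at P2 and at Tead3 alone at P17, and P2 H3K27ac shows the highest numbers, from 7 to 58 peaks a gene.

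Sequences before the start are shown for the members whose RefSeq start a SOX peak covered and whose upstream stretch lies in no other gene, since these are the promoters on which the SOX comparison turns. The promoter table (RefSeq, GRCm38.p6) held entries for 6 of the 8 genes; Tead1 and Tead4 are the others. Each of the first 3 lines gives the 250 bases before the outermost start, 5′ to 3′ on the strand of the gene. Capitals mark the letters GGAATG (a TEAD core) and ACAATG or ACAAAG (SOX cores), searched on both strands.
Wwtr1, chr3:57575911-57576160, minus strand: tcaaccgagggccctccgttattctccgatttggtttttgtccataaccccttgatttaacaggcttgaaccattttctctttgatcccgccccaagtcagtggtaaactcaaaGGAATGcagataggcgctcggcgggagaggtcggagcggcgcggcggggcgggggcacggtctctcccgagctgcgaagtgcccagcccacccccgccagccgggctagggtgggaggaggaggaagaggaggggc
Tead2, chr7:45215542-45215791, plus strand: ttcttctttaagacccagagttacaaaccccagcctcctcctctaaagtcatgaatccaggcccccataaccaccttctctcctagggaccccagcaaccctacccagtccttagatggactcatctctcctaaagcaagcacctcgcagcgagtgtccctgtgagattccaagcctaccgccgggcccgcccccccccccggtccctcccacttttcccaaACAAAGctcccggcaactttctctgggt
Tead3, chr17:28350806-28351055, minus strand: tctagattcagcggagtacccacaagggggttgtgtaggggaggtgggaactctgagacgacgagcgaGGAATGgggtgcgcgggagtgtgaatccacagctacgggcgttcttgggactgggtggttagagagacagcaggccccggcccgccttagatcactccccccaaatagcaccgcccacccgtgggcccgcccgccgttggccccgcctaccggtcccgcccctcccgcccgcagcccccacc
Lats2, chr14:57746101-57746123, minus strand: ccgtGGAATGccaACAATGtagc
The Lats2 line is a stretch of 23 bases that begins at the start itself; it was chosen after the matches were seen, because it holds both kinds of core within a few bases. A further GGAATG was found at Yap1, 141 bases before its start (in tctgcaGGAATGtagcga).

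In windows of 300 bases (250 before to 50 after each start), GGAATG occurred at 4 of the 6 genes, Yap1, Wwtr1, Tead3 and Lats2, against 15.5% of 17492 protein-coding genes with an entry. In Wwtr1 it lay 136 bases before the outermost start. Tead3 held it 182 bases before the outermost start and, in the window of its next start, at 3 further places. A SOX core occurred at 2 of the 6 genes, against 29.0% of genes. These were Tead2, with ACAAAG 28 bases before the start, and Lats2, with ACAATG 13 bases after it. Of these 2 genes, Tead2 lay under a P2 SOX9 peak and Lats2 had no SOX peak at either age. A match is a description of letters only, and no GGAATG overlapped a SOX core in these windows.

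Yap1 encodes YAP and lies on chromosome 9 from 7931999 to 8004638. No SOX peak lay in its region in any of the 4 SOX lists. The nearest P2 SOX9 peak was 93.5 kb from the gene, at Birc2, and the nearest P17 SOX9 peak was 166.0 kb away, at Tmem123. The nearest SOX8 peaks were more than a megabase away at both ages. An H3K4me3 peak covered the Yap1 start at both ages, at chr9:8001458-8005802 (4345 bp) at P2 and chr9:8002365-8005468 (3104 bp) at P17. All of the P17 peak lay inside the P2 peak. It was wider than 30.3% of its list, and the P2 peak was wider than 73.2% of its own.

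H3K27ac at Yap1 differed between the lists. At P2, 23 peaks of 395 to 5967 bp covered 54.0% of the region, and 79.7% of the H3K4me3 peak was shared with them. At P17 the region held 0 H3K27ac peaks, and the nearest lay 37.6 kb away at Cfap300. Yap1 was thus 1 of the genes with P17 H3K4me3 and no P17 H3K27ac, which made up 5.76% of the genes with P17 H3K4me3. Among the 6 members with P17 H3K4me3 it was the only one.

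Wwtr1, which encodes TAZ, carried the same H3K4me3 at both ages together with a SOX9 peak at P2. The gene lies on chromosome 3 from 57455644 to 57575910. The P2 SOX9 peak, chr3:57574881-57577394, was 2514 bp wide, and its centre lay 227 bp upstream of the outermost start, on the promoter sequence shown above. All of it lay inside the P2 H3K4me3 peak (4568 bp) and inside P2 H3K27ac. It was wider than 43.1% of the P2 SOX9 list. P17 SOX9 had no peak within the region, the nearest being 269.0 kb away at Pfn2, and the nearest P2 SOX8 peak lay 271.0 kb away at the same gene. The P17 H3K4me3 peak of 3913 bp lay wholly inside the P2 peak and covered the start too. H3K27ac covered 55.5% of the region at P2, in 39 peaks, and 3.62% at P17, in 2 peaks. Of those 2, a peak of 2834 bp covered the start and a peak of 1884 bp lay about 63.6 kb downstream, inside the gene.

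The 4 TEAD genes encode the DNA-binding partners of YAP and TAZ, and no 2 of them had the same set of peaks. Tead1 had P2 SOX9 and, at both ages, H3K4me3 and H3K27ac. Tead2 had P2 SOX9, P2 H3K4me3 and H3K27ac at both ages. Tead3 had peaks in all 8 lists, and Tead4 had P2 H3K27ac alone.

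Tead1 is the longest of the 8 genes (227429 bp, chromosome 7 from 112679356 to 112906784). Its P2 SOX9 peak, chr7:112678245-112681231, was 2987 bp wide and spanned the lower-numbered end of the gene. H3K4me3 peaks spanned the same end at P2 (4900 bp) and at P17 (4875 bp), and they shared 4405 bp. All of the SOX9 peak lay inside P2 H3K4me3, and 93.1% of it was shared with P2 H3K27ac. At P17 the nearest SOX8 and SOX9 peaks were both 299.0 kb away, at Arntl. H3K27ac covered 52.6% of the Tead1 region at P2, in 58 peaks, and 26.8% at P17, in 16 peaks of 1773 to 16743 bp. No P17 H3K27ac peak reached the P17 H3K4me3 peak at the gene's end. The nearest of the 16 began at 112684187, and the widest lay deep in the gene at chr7:112817265-112834007.

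Tead2, on chromosome 7 from 45215792 to 45233468, was the member whose promoter mark was absent from the later list. At P2 an H3K4me3 peak of 3127 bp (chr7:45214775-45217901) covered the start. A SOX9 peak of 2261 bp (chr7:45215477-45217737) lay wholly inside it and reached from 315 bp upstream to 1945 bp downstream of the start. It also lay wholly inside a P2 H3K27ac peak of 7525 bp. At P17 no SOX8, SOX9, H3K4me3 or H3K27ac peak covered the start. The nearest P17 H3K4me3 peak was 43.9 kb away, at Gfy, Pih1d1 and Slc17a7, and the nearest P17 SOX9 peak was 16.0 kb away at Kash5. Of all genes with a P2 H3K4me3 peak, 6.91% had none at P17, and Tead2 was 1 of 7 members with that mark. The single P17 H3K27ac peak in the region, 3595 bp wide, lay at the far end of the gene and overlapped the neighbouring Cd37, which encodes a leukocyte membrane protein. The P2 H3K4me3 peak was narrow for its list, wider than 34.0% of its peaks.

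**Figure D2:**
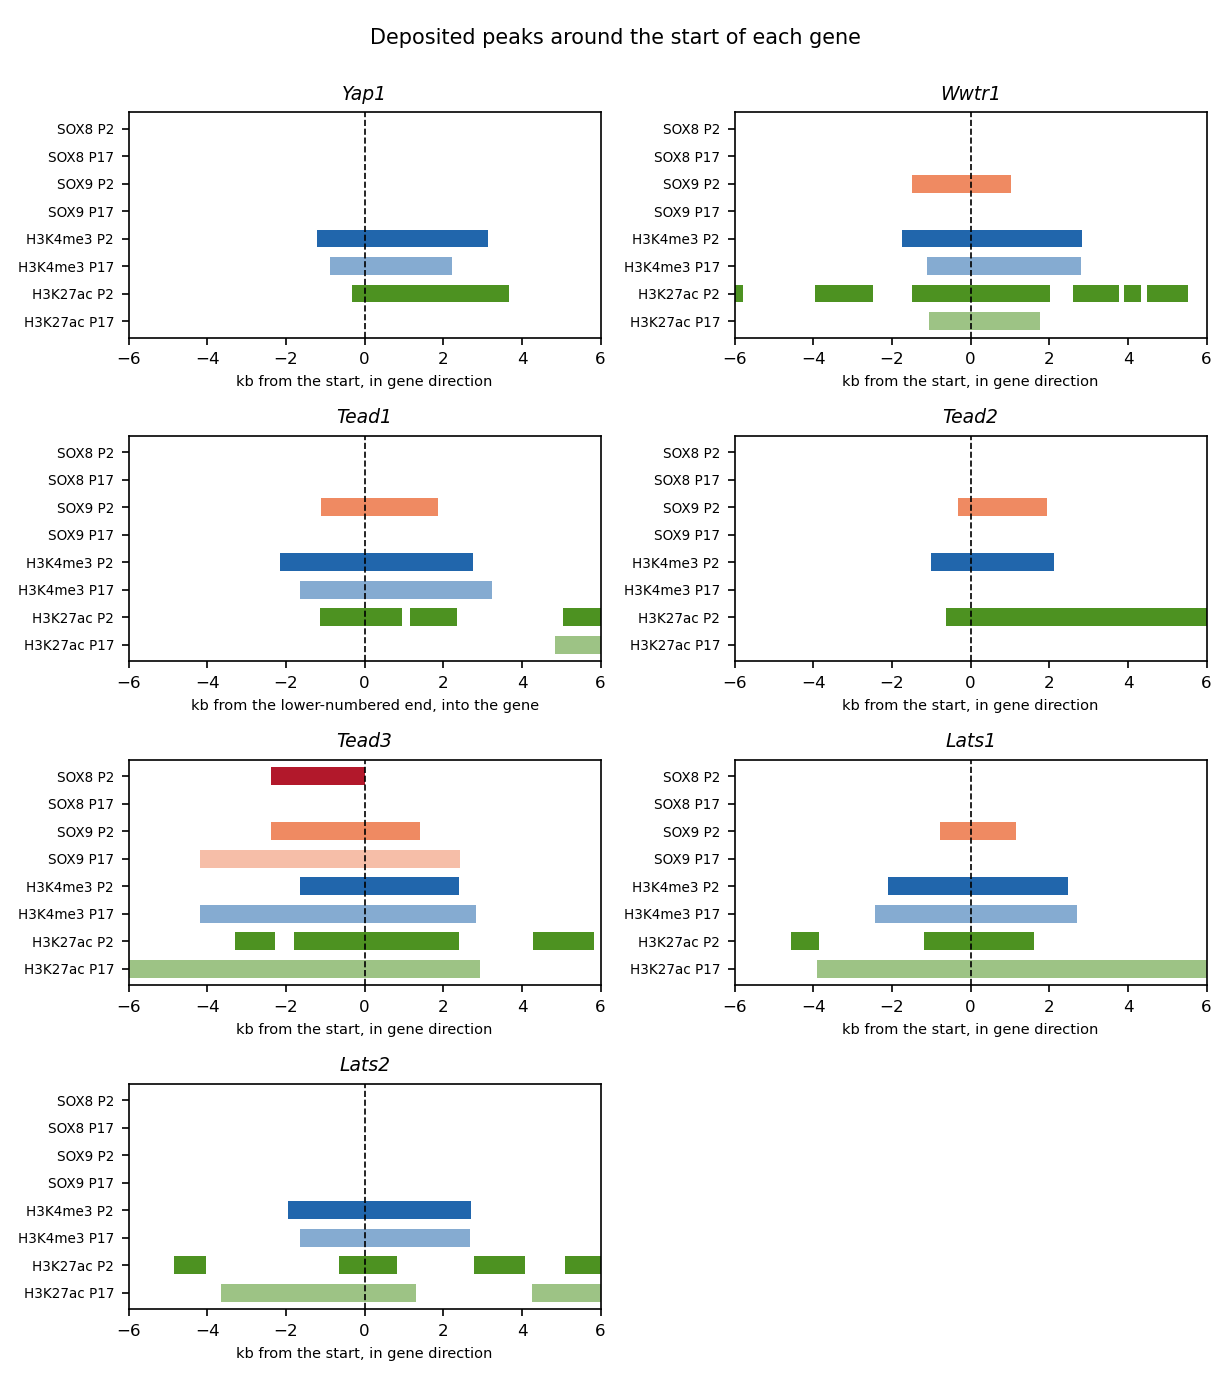
Deposited peaks (bars) from 6 kb before to 6 kb after the start of 7 genes, with distance from the outermost RefSeq start on the x axis (for Tead1, from the lower-numbered end) and target and age on the y axis; Tead4 is not drawn. P2 SOX9 bars cross the start of Wwtr1, Tead2, Tead3 and Lats1 and the end of Tead1, inside or beside an H3K4me3 bar, and Yap1 and Lats2 show H3K4me3 without SOX.

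Tead3 was the only member with SOX peaks at both ages, and close neighbours share those peaks. The gene lies on chromosome 17 from 28331671 to 28350805, on the minus strand. Past its far end, 638 bp away, lies Rpl10a, which encodes a protein of the large ribosomal subunit. Before its start, 710 bp away, ends Tulp1, a gene of photoreceptors that is needed for vision. The SOX peaks fell into a group at Rpl10a and a group at the Tead3 start.

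The group at Rpl10a appeared in all 4 SOX lists. The peaks were 2009 bp (P2 SOX8), 2237 bp (P17 SOX8), 2761 bp (P2 SOX9) and 5159 bp (P17 SOX9) wide, and each covered the annotated Rpl10a starts at 28328471 and 28328565. Their centres lay from 21650 to 22336 bp downstream of the Tead3 start, and the first 3 did not overlap the Tead3 gene. The P17 SOX8 call at Tead3 rests on this group alone. H3K4me3 covered the same starts at both ages, with 4892 bp at P2 and 5733 bp at P17. The median width of all SOX9 peaks was 2668.5 bp at P2 and 5336 bp at P17. Within these lists, the SOX9 peak at Rpl10a was wider than 54.4% of peaks at P2 and 46.9% at P17.

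The group at the Tead3 start appeared in 3 of the 4 SOX lists. The P2 SOX8 peak, chr17:28350789-28353182, was 2394 bp wide and reached only 16 bp past the outermost start, so that most of it lay upstream. The P2 SOX9 peak of 3796 bp (chr17:28349392-28353187) contained it and covered all 3 annotated Tead3 starts. The P17 SOX9 peak of 6609 bp (chr17:28348379-28354987) contained the P2 SOX9 peak in turn. Within its own list it was wider than 72.8% of peaks, and the P2 SOX9 peak was wider than 85.3% of its list. P17 SOX8 had no peak there. All 3 peaks also overlapped the last part of Tulp1. The H3K4me3 peak over the start measured 4034 bp at P2 and 7026 bp at P17, the latter wider than 94.1% of its list.

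Beyond the region, at the Tulp1 start itself (28365216), P17 SOX8 (2245 bp) and P17 SOX9 (3669 bp) peaks were listed and no P2 SOX peak was. An H3K27ac peak of 42046 bp at P17 ran from inside Tead3 across all of Tulp1 and past its start, whereas P2 H3K27ac was broken into separate peaks. A further P17 H3K27ac peak of 29470 bp covered Rpl10a and reached into Tead3. With peaks that overlap another protein-coding gene left out (an alternative added once the data had been seen), Tead3 had no SOX peak in any list, and members with a P2 SOX9 peak numbered 3 (Wwtr1, Tead1 and Tead2).

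**Figure D3:**
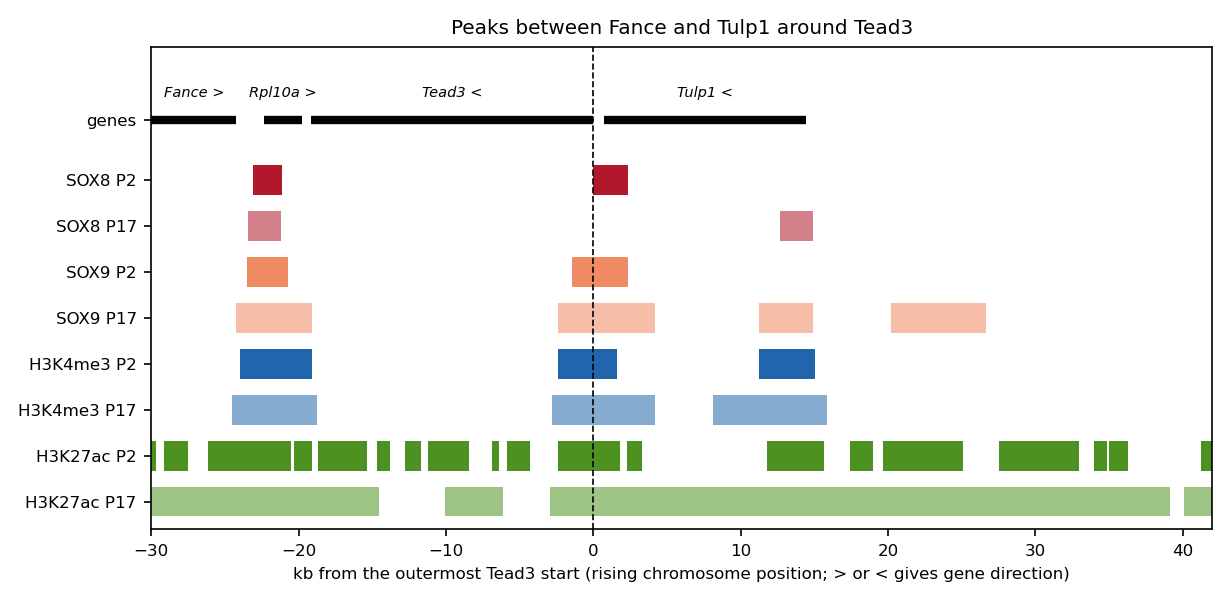
Genes (top) and deposited peaks (bars) from 30 kb below to 42 kb above the outermost Tead3 start, with target and age on the y axis; dark bars are P2 and light bars P17. SOX bars stand at Rpl10a in all 4 SOX lists, at the Tead3 start in 3 lists, and at the Tulp1 start at P17 only, under a P17 H3K27ac bar of 42046 bp. A further P17 SOX9 bar of 6402 bp stands beyond the Tulp1 start, from 20226 to 26627 bp above the Tead3 start.

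Tead4 had no SOX and no H3K4me3 peak at either age. It lies on chromosome 6 from 128227143 to 128300813. The nearest P2 SOX9 and H3K4me3 peaks were 48.4 kb and 53.0 kb away at Tulp3. At P2 19 H3K27ac peaks of 536 to 6568 bp covered 38.1% of its region, and at P17 there were 0, with the nearest 25.6 kb from the gene. Its set of present and absent peaks was shared by 4208 other protein-coding genes, or 19.2%.

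The LATS kinases differed from each other in SOX9 and in H3K27ac. Lats1, on chromosome 10 from 7681200 to 7716461, had a P2 SOX9 peak of 1934 bp at chr10:7680426-7682359. Its centre lay 183 bp downstream of the start, and it was wider than only 14.7% of the P2 SOX9 list. The peak also covered an annotated start of Pcmt1, at 7681158, which runs the other way and overlaps the Lats1 start, and the share of either gene in the peak cannot be told apart. H3K4me3 at this shared start measured 4566 bp at P2 and 5115 bp at P17, and the P17 peak contained the P2 peak. No P17 SOX peak lay within a megabase of Lats1.

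Lats2, on chromosome 14 from 57689662 to 57746212, had no SOX peak at either age. The nearest P2 SOX9 peak was 143.0 kb away at Zdhhc20, and the nearest P17 SOX9 peak 324.0 kb away at Fgf9. H3K4me3 covered its outer start at P2 (4644 bp) and at P17 (4317 bp), with the P17 peak wholly inside the P2 peak. Its inner start, at 57734418, had H3K27ac at both ages and no H3K4me3. These H3K4me3 peaks also overlap the predicted gene Gm52140.

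In H3K27ac the difference between the ages had opposite signs in the full lists. Lats1 was covered over 17.9% of its region at P2 by 7 peaks, none wider than 2798 bp. At P17 it was covered over 83.8% by 4 peaks, the widest of 28558 bp, which also covered part of Katna1. The P17 peak over the Lats1 start, of 17990 bp, also overlapped Nup43 and Pcmt1. Lats2 was covered over 72.7% at P2 by 16 peaks, the widest of 21320 bp, and over 51.9% at P17 by 7 peaks of 1830 to 15641 bp. The P2 list held 287845 H3K27ac peaks and the P17 list 29909, so cover was also computed with the P2 list limited to its 29909 widest peaks. On that scale Lats1 went from 0% to 83.8% and Lats2 from 44.8% to 51.9%. The sense of the Lats2 difference thus depends on the length of the P2 list. Limiting that list can only lower P2 cover, so it could not reverse the sense at Lats1.

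Across the 8 genes, the median share of a region covered by H3K27ac was 54.8% at P2 and 19.9% at P17, against 20.9% and 4.85% over all protein-coding genes. With the limited P2 list, 7 of the 8 genes had a peak (all genes 40.5%), the median cover of the members was 20.9% and that of all genes 0%. With that list, Yap1 (18.5%), Wwtr1 (18.9%), Tead2 (39.1%) and Tead4 (7.85%) still had more cover at P2 than at P17. Tead1 (23.0%), Tead3 (38.5%), Lats1 and Lats2 had less. For Tead1 and Lats2 this is the reverse of the full list, with narrow peaks removed at P2 alone. For Tead3 the full list gave 69.6% at P2 and 73.6% at P17.

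**Figure D4:**
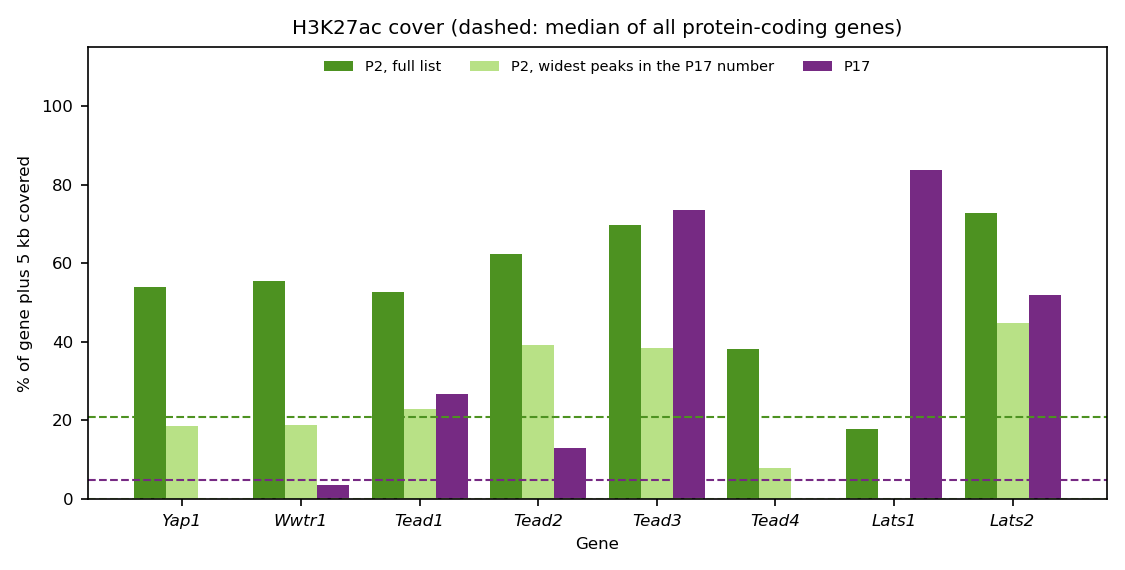
Percent of each gene plus 5 kb covered by H3K27ac peaks (y axis, from 0) for P2 with the full list, P2 with the 29909 widest peaks and P17, with dashed lines at the median of all protein-coding genes (0% for the limited list). Lats1 stands at 83.8% at P17, and Yap1 and Tead4 are at 0% there.

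Over the 8 genes, each SOX peak met the promoter mark. Each of the 6 P2 SOX9, 2 P2 SOX8, 2 P17 SOX9 and 1 P17 SOX8 peaks overlapped H3K4me3 of the same age. By gene regions, 5750 of 6073 genes with a P2 SOX9 peak also had P2 H3K4me3. For P2 SOX8 these were 3219 of 3302 genes, and for P17 SOX9 with P17 H3K4me3 3053 of 3445. Having both was thus common over all genes, and overlap was not counted over whole lists. Both P2 SOX8 peaks and the P17 SOX8 peak overlapped a SOX9 peak. In the SOX9 lists, 2 of 6 peaks at P2 and 1 of 2 at P17 were shared with SOX8. Of 5 members with a P2 SOX9 peak, 4 had no P2 SOX8 peak, against 47.9% of genes with a P2 SOX9 peak, and 4 had no P17 SOX9 peak, against 58.9%. Neither count was tested, and with 5 genes 1 gene moves the share by 20 points. Over RefSeq starts alone, P2 SOX9 covered a start of 4 of 6 members (22.8% of 17492 genes) and P17 SOX9 of 1 of 6 (10.3%). P2 SOX8 covered a start of 1 of 6 (12.2%) and P17 SOX8 of 0 of 6 (8.4%). P2 H3K4me3 covered a start of 6 of 6 (44.8%), and P17 H3K4me3 of 5 of 6 (46.0%). P2 H3K27ac covered a start of 6 of 6 (60.7%), and P17 H3K27ac of 4 of 6 (46.6%), the exceptions being Yap1 and Tead2.

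Gene length bears on these counts, since a longer region can hold more peaks. Genes were put in 10 equal classes by length. In the class of Tead1 and Wwtr1, SOX9 peaks lay at 37.0% and SOX8 peaks at 18.7% of genes at P2. In the class of Tead2 and Tead3 these were 28.6% and 16.0%. P2 H3K27ac stood at 99.2% in the class of Tead1 and Wwtr1, so presence there tells little about a long gene.

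Wwtr1, Tead1 and Lats1 had the same set of present and absent peaks over the 8 lists, and so did 1689 genes (7.72%, counted for each member over the remaining genes). The set of Tead2 was rarer, with 55 genes (0.251%), and that of Yap1 was shared by 354 genes (1.62%). By bases covered in the 8 lists (Euclidean distance of log2(bases + 1)), the nearest gene to Yap1 was Baz1a at 0.219, and the nearest to Tead2 was Glipr2 at 0.707. For Wwtr1 it was Tdp1 at 0.454, and for Lats2 it was Ppm1e at 0.184.

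The rest of the pathway was counted from 3 lists with 58 further genes in all. Peaks that overlap another gene were kept in these counts, so a peak or its bases may belong to a neighbour. The first list held 25 genes of the core kinase cassette and regulators of the pathway, called upstream regulators here for short. Of these, 18 had a P2 SOX9 peak (all genes 27.7%) and 8 a P17 SOX9 peak (all genes 15.7%). SOX8 peaks lay at 9 of them at P2 (all genes 15.1%) and 5 at P17 (all genes 13.0%). H3K4me3 peaks lay at 24 at P2 (all genes 49.3%) and 23 at P17 (all genes 50.9%), and of all genes with P2 H3K4me3 53.3% had P2 SOX9. The most bases of P2 SOX9 lay at Ajuba (6676 bp), a scaffold that binds LATS, then at the kinase gene Taok2 (5805 bp) and at Rassf1 (4763 bp). Among upstream genes with a P17 SOX peak were Nf2, which encodes the tumour suppressor merlin, with SOX8 alone (3097 bp), and the giant cadherin gene Fat4 with SOX9 alone (4591 bp). Frmd6, Csnk1d and Ppp2r1a had SOX8 and SOX9 at both ages. The other P17 SOX genes here were Mob1b, Taok2, Taok3, Dchs1 and Btrc. Stk3, 1 of the genes for the MST kinases that activate LATS, had no SOX peak, and Stk4, the other, had P2 SOX9 (1655 bp); both were named after their values were seen.

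Of 15 partners of YAP, TAZ and TEAD, SOX8 peaks lay at 6 at P2 (40.0%, all genes 15.1%) and at 3 at P17 (all genes 13.0%). SOX9 peaks lay at 5 at P2 (33.3%, all genes 27.7%) and at 6 at P17 (40.0%, all genes 15.7%). The widest P2 SOX9 cover was at Amotl2 (7232 bp), an angiomotin that binds YAP, followed by the 14-3-3 genes Ywhaq (3890 bp) and Ywhaz (3838 bp). Those 3 genes also had P17 SOX9, over 5483, 3968 and 2600 bp in the same order. Smad3 had SOX9 at P17 only (4493 bp), and Smad2 had SOX8 and SOX9 at both ages. H3K4me3 was present at P2 and at P17 for 9 of the 15 (60.0%, all genes 49.3% and 50.9%).

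Of 22 target genes of YAP and TAZ, which include Lats2 itself and share Ajuba, Amotl2 and Ptpn14 with the other lists, 9 had a P2 SOX9 peak (40.9%, all genes 27.7%) and 4 a P17 SOX9 peak (18.2%, all genes 15.7%). These 4 were Axl (4471 bp), Amotl2, Nt5e (5442 bp) and Gadd45a (4040 bp), and Axl alone of the list had a P17 SOX8 peak (4.55%, all genes 13.0%). After Amotl2 and Ajuba, Tgfb2, a growth factor gene, had the most P2 SOX9 (5037 bp). H3K4me3 lay at 14 targets at P2 and at 9 at P17, with 5 lost and 0 gained between the lists, against 6.91% lost over all genes with P2 H3K4me3. Over the same ages H3K4me3 went from 6 to 2 of 8 Müller glia marker genes, and the part of this in the target count was not tested. The 5 were Ccn1, Ajuba, Dock5, Fjx1 and Birc5, named after their values were seen. Ccn1 encodes a matricellular protein and Birc5 survivin, which acts in cell division. The canonical target Ccn2, also named after its values were seen, had no H3K4me3 and no SOX peak at either age, with P2 H3K27ac of 4505 bp.

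**Figure D5:**
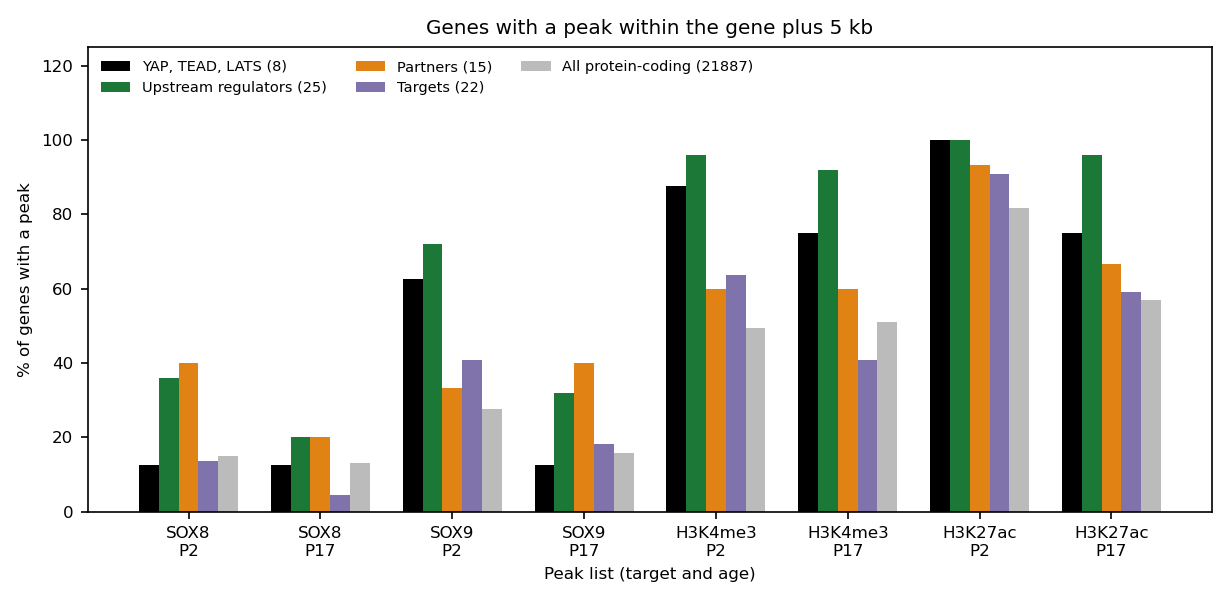
Percent of genes with a peak in the gene plus 5 kb (y axis) in each list (x axis) for the 8 genes, 25 upstream regulators, 15 partners, 22 targets and 21887 protein-coding genes. Upstream regulators show P2 SOX9 at 72.0%, the 8 genes at 62.5%, targets at 40.9% and partners at 33.3%, against 27.7% of all genes.

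Whole retina holds several cell types, and markers were counted through H3K4me3 at the same regions. All 8 genes of retinal progenitors and neurons (such as Rax, Pax6, Crx and Nrl) had the mark at both ages. Of 8 Müller glia genes, 6 had it at P2 and 2 at P17 (Glul and Dkk3), and P2 SOX9 lay at 5 and P17 SOX9 at 1 of them (Apoe). Of 8 endothelial genes 1 had H3K4me3 at each age (Kdr). Of 8 microglia genes 2 had it at P2 (Aif1 and Fcgr3) and 1 at P17, and of 4 astrocyte genes Gfap at both. At Gfap it covered only 98 bp of the region at P2 and 589 bp at P17. The narrowest P2 H3K4me3 peak was 1096 bp, so the P2 peak counted at Gfap lay mostly outside its region. At Aif1 the mark covered 1178 bp at P2 and 1202 bp at P17. Of 8 retinal pigment epithelium genes 2 had it at P2 (Best1 and Pmel) and 3 at P17 (with Rgr), and of 6 lens genes 2 at each age (Mip and Bfsp1). Rpe65, Tyr, Cdh5, Cldn5, Csf1r, Cx3cr1 and Cryaa had no H3K4me3. P2 H3K27ac, in contrast, lay at 8 endothelial, 7 microglia and 7 pigment epithelium genes (all genes 81.8%). At P17 it lay at 4, 1 and 3 of them (all genes 57.0%). The lower P17 counts at Müller glia genes go the same way as H3K4me3 at Tead2, as SOX9 at the members (5 at P2 and 1 at P17, with none at P17 for Wwtr1, Tead1, Tead2 and Lats1) and as H3K4me3 at the target genes (14 and 9). Which cells carried the mark at these marker genes cannot be told in whole retina, so the counts give no number of Müller glia. Their part in these results was not tested. Over all genes, H3K4me3 lay at 49.3% at P2 and 50.9% at P17. SOX9 peaks lay at fewer genes at P17 over all genes too, at 27.7% and 15.7%, and 58.9% of genes with P2 SOX9 had no P17 SOX9 peak. The P17 SOX9 list held fewer and wider peaks over nearly the same total length, so these counts are not amounts of binding.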

How the data were processed

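Libraries were 24 CUT&RUN libraries of mouse retina, and the 8 peak lists deposited by the authors give the chromosome, start and end of each peak. The submitters' processing notes name Bowtie2, SEACR and GRCm38; the way libraries were combined, the threshold and the use of IgG are not given in the sources used here. The score field was 0 throughout and was not used, and the depth of the libraries is unknown. No list of IgG was analysed here. Genes and promoter sequences came from RefSeq tables of GRCm38.p6, and positions count from 1. Regions were the gene plus 5 kb and overlap was 1 bp or more, computed in Python 3.11.15 with pandas 2.3.3 and numpy 2.4.6; counting was tested on simulated data. Named were the 8 genes, pathway genes with a P17 SOX peak and, in each pathway list, the 3 genes with the most P2 SOX9 bases, other names being marked as later choices; some of these genes are not reported here. The members and lists were chosen with earlier results of these data known. Alternatives changed the region, the overlap, the list length and the joining of peaks. No test was made, since no list holds replicates.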

Additional observations from a re-analysis of the deposited data

How the results depend on the processing

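Of 87 alternatives for 22 counts, 63 stayed within 1.5 times the reported value and 24 did not. Without flanks, P2 SOX8 peaks went from 2 to 1, and P17 SOX8 peaks and members with one from 1 to 0. With 50 kb on each side, P17 SOX8 peaks rose to 2, members with a P17 SOX9 peak to 2 (Tead2 joined) and P17 SOX9 peaks to 6. H3K4me3 peaks then numbered 14 at P2 and 15 at P17, and P2 H3K27ac peaks 277 in place of 179. With the wider 50% of each list, members with a P2 SOX9 peak fell from 5 to 2 (Tead1 and Tead3), P2 SOX9 peaks to 3, P2 SOX8 peaks to 1, P17 SOX8 peaks and members to 0, and P17 SOX9 peaks to 1. P2 H3K27ac peaks were then 105 and P17 H3K27ac peaks 16 in place of 33. Joining peaks less than 1 kb apart left 92 P2 H3K27ac peaks. Without peaks that overlap another gene, members with a peak were 0 for P2 SOX8, P17 SOX8 and P17 SOX9, 3 for P2 SOX9, 4 for P2 H3K4me3 and 3 for P17 H3K4me3. Trimming peaks to 500 bp, or asking for 50% of the peak or of the shorter peak, left each count within that range. Among genes with H3K4me3 of the same age, the share of all genes with a SOX peak was 29.8% and 53.3% at P2 (SOX8, SOX9) and 23.1% and 27.4% at P17.

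No paired analysis was possible because each list stands for a whole group and names no replicate, and no replicate was left out. Depth is unknown, so an absent peak says only that none was listed. The P2 H3K27ac list is far longer than the P17 list, so their counts are not on the same footing. The P2 SOX9 list also holds more and narrower peaks than the P17 SOX9 list, so the same caution applies to SOX9 counts.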
